A study of Mus musculus with 4 samples.

Results

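The genes described here are 35 mouse genes whose products work in the nucleolus, of 31053 genes in the count matrices. They were chosen by name, as factors of ribosome biogenesis that act in the nucleolus, and the rule itself uses no measured level, although earlier results of these data were known when they were chosen. The nucleolus is where RNA polymerase I transcribes ribosomal RNA, where small nucleolar ribonucleoproteins (snoRNPs) modify that RNA, and where assembly factors build it into the small and the large ribosomal subunit. Cells that grow before dividing need many new ribosomes, and Myc, a transcription factor that drives growth, is known to activate many genes of this kind. In the germinal center (GC), B cells alternate between proliferation as centroblasts (CB) in the dark zone and selection by T cells as centrocytes (CC) in the light zone, and CC that receive help from T cells induce Myc for a short time before they re-enter the cell cycle.

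Single-cell RNA sequencing was performed on splenic B220+IgD- cells sorted from mice given sheep red blood cells (SRBC) 10 days earlier, in female mice 8 weeks old on a C57BL/6J background. All mice carried the Cγ1-cre allele, which deletes floxed exons in B cells that enter the GC. WT mice had no floxed allele. A single floxed allele of Crebbp defined C, a single one of Kmt2d defined K, and CK had both, where the genes encode an acetyltransferase and a methyltransferase of histones. Each genotype was 1 mouse and 1 library, so genotype differences have no replicate check and the mouse, the library and the genotype cannot be told apart.

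The libraries held between 33270825 and 39803865 UMIs (unique molecular identifiers, each standing for 1 captured transcript 3′ end) over 39009 barcodes, of which 9804 were annotated as GC B cells by the authors. WT contributed 1227 of these cells, C 2041, K 2583 and CK 3953. Their median depth ran from 3653 UMIs in CK to 4931 UMIs in WT, and 143 barcode sequences occurred in more than 1 library. Crebbp stood at 68.4 counts per 1000000 UMIs (CPM) in WT, 43.0 CPM in C, 38.6 CPM in K and 38.0 CPM in CK, and Kmt2d at 18.5, 21.3, 9.85 and 15.1 CPM in the same order. The library labelled K was thus as low in Crebbp as those with a floxed Crebbp allele, and since the captured 3′ end need not fall in a deleted exon, the genotypes were not checked by these levels.

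By role, the 35 genes comprised 6 scaffolds and regulators of the nucleolus (Ncl, Npm1, Nolc1, Ddx21, Mybbp1a and Gnl3), 3 subunits of RNA polymerase I or of its shared core (Polr1a, Polr1b and Polr1c), 3 proteins of the box C/D snoRNPs, which guide 2′-O-methylation of RNA (Nop56, Nop58 and Fbl, the methyltransferase), and 4 of the box H/ACA snoRNPs, which guide pseudouridylation (Dkc1, the pseudouridine synthase, Nhp2, Nop10 and Gar1). The other members were 8 small subunit assembly factors (Heatr1, Utp20, Wdr43, Rrp9, Nop14, Rrp12, Nob1 and Tsr1) and 11 large subunit assembly factors (Bop1, Pes1, Wdr12, Nop2, Nop16, Nip7, Rrs1, Brix1, Ebna1bp2, Noc2l and Noc3l). The members lie on 17 chromosomes, with at most 5 on the same chromosome. Npm1, a histone chaperone that forms much of the nucleolus, gave 38248 UMIs in annotated cells and Ncl (nucleolin), which binds ribosomal RNA, 25747. The 6 scaffolds and regulators held 46.3% of the members' UMIs and the 3 polymerase subunits 1.27%. Npm1 (ENSMUSG00000057113) spans chr11:33152287-33163206 on the minus strand of mm10, Ncl (ENSMUSG00000026234) chr1:86344719-86359400 and Gnl3 (ENSMUSG00000042354) chr14:31012433-31019152, both on the minus strand. Npm1 has processed pseudogenes, so its counts may miss reads that match more than 1 place.

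Promoters of 30 members were in the RefSeq promoter table (GRCm38.p6), as windows from 250 bases before to 50 after the start of transcription. The windows were searched for CACGTG, the E-box that Myc and its partner Max prefer, which reads the same on both strands. It was present in 6 of the 30 members (20%), against 8.09% of 27025 genes in the table. Of the 6050 genes with a window that were tested in the comparison by Myc UMIs below, 12.8% had it. The difference between these shares was not tested. The sites are shown with the motif in capitals because they allow the members to be compared with their response further on. They lay 60 bases before the start in Nop2 and within the first 50 bases after it in the other 5.

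Nop2, plus strand, chr6:125131811-125131840: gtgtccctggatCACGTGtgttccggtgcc
Pes1, plus strand, chr11:3963965-3963994: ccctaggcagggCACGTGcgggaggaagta
Tsr1, plus strand, chr11:74898092-74898121: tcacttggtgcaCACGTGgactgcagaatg
Wdr43, plus strand, chr17:71616220-71616249: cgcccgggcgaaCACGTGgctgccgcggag
Utp20, minus strand, chr10:88826765-88826789: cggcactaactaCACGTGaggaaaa
Mybbp1a, plus strand, chr11:72441355-72441376: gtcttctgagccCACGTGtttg

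Of the members that rose most in CC with Myc UMIs, Gnl3, Nolc1 and Ddx21 had a window in the table and no CACGTG in it. The 200 bases that end 51 bases before their start of transcription are printed, all in lower case since none holds the motif. They do not cover the first bases after the start, where most of the sites above lie.

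Gnl3, minus strand, chr14:31019182-31019381: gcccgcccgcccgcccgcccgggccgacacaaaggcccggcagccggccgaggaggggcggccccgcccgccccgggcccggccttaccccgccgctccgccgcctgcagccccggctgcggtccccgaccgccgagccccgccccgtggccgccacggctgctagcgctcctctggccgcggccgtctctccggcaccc
Nolc1, plus strand, chr19:46075597-46075796: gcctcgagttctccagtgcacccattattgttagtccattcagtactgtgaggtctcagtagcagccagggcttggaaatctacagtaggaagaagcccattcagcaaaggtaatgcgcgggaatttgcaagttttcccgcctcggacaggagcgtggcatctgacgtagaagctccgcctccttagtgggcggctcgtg
Ddx21, minus strand, chr10:62602349-62602548: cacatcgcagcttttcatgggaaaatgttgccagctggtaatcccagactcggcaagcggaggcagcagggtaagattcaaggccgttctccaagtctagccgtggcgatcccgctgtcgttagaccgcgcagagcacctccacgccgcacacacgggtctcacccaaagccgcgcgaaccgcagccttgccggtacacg

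Whether the members followed GC B cell subtypes was examined with the subtype names the authors deposited. The names were made from the expression of the same cells, so levels by subtype are a description and were not tested. Summed over all 35 genes, the level was low and even in CB, in cells in transition from CB to CC and in CC, somewhat higher in early CB, and more than 2-fold higher in cells named prememory or recycling. In CC, the summed level was 3353 CPM in WT, 3137 CPM in C, 3755 CPM in K and 3695 CPM in CK. In CB it was 3498, 3203, 3237 and 3530 CPM in the same order, and in transitioning cells it ran from 3368 to 3695 CPM. These 3 subtypes overlapped across libraries. Early CB, in which the S phase genes summed to 5738 to 6128 CPM against 586 to 763 CPM in CC, stood at 4131 CPM in WT, 4224 CPM in C, 4266 CPM in K and 4598 CPM in CK, above all libraries of the former subtypes. Prememory cells stood at 8839 CPM in WT, 9218 CPM in C, 7677 CPM in K and 9008 CPM in CK. Recycling cells, between 8 and 49 per library, ran from 7526 CPM in WT to 10173 CPM in C.

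**Figure D1:**
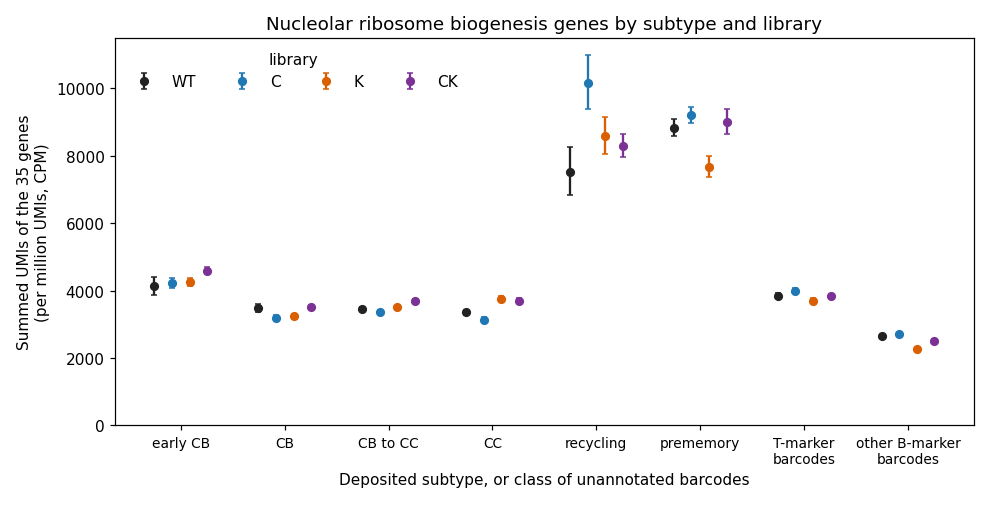
Summed UMIs of the 35 genes in CPM (vertical axis) by deposited subtype and for 2 classes of unannotated barcodes (horizontal axis), 1 point per library with its 95% Poisson interval, which covers counting error only. Prememory and recycling cells sit between 7526 and 10173 CPM in every library, all other classes between 2259 and 4598 CPM.

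On the log2 scale, prememory cells exceeded CC by 1.32 ± 0.22 (SD, n = 4 libraries), which is 2.49-fold, and recycling cells by 1.31 ± 0.26, or 2.47-fold. The gap of early CB over CC was 0.31 ± 0.10. For CB over CC it was -0.05 ± 0.12 and for transitioning cells 0.01 ± 0.08, both smaller than their spread. Members higher in prememory cells than in CC in all 4 libraries were 34 of 35, where 24.3% of 9745 genes were, and 0 were lower in all 4 (20.6% of genes). The exception was Utp20, a scaffold of early small subunit precursors, which was higher in 3 libraries. In recycling cells 25 of 35 members were higher in all 4 libraries (13.5% of 9504 genes) and 0 lower (21.2%). Early CB had 13 higher (22.6% of 9897 genes), among them all box C/D and H/ACA proteins, and 3 lower (25%), which were Mybbp1a, Tsr1 and Noc3l. Transitioning cells had 7 higher (28.5% of 10610 genes), of which 4 are large subunit factors (Bop1, Rrs1, Brix1 and Ebna1bp2), and 7 lower (19.1%), among them all 3 polymerase subunits. Against CC, CB had 3 members higher (30.5% of 10445 genes) and 15 lower (23.2%) in all 4 libraries. The 3 were Ncl, Nop58 and Brix1, and the 15 included Polr1a and Polr1c with Gnl3, Mybbp1a, Fbl and Noc2l.

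**Figure D2:**
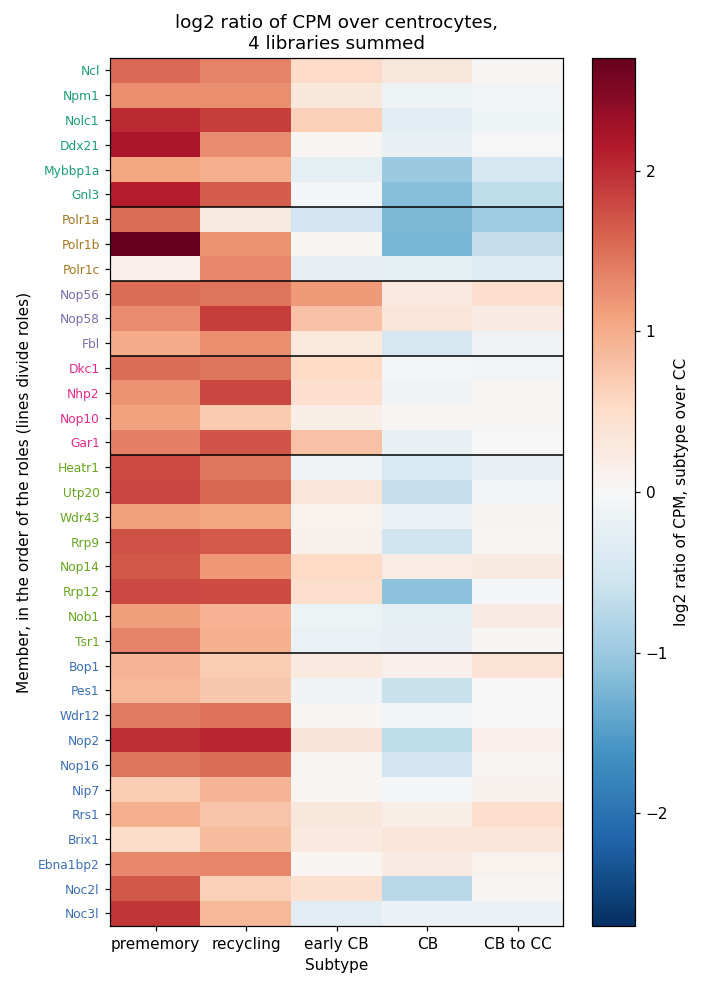
log2 ratio of CPM over CC for each member (rows, in the order of the roles, lines divide roles) in the other 5 subtypes (columns), with UMIs summed over the 4 libraries. Prememory ratios run from 0.14 for Polr1c to 2.69 for Polr1b, and in the CB column Polr1b, Polr1a, Gnl3 and Rrp12 are lowest, between -1.24 and -1.11.

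The gap between prememory cells and CC was not of 1 size among the members. With libraries summed, the log2 ratio was above 2 for Polr1b (2.69, from 38 UMIs in prememory cells), the RNA helicase Ddx21 (2.18), the nucleolar GTPase Gnl3 (2.11) and the snoRNP chaperone Nolc1 (2.02). It was smallest for Polr1c (0.14), a subunit that RNA polymerase III shares, and for the large subunit factors Brix1 (0.50) and Nip7 (0.68). The median over the members was 1.39, and 0.11 over all genes.

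Levels of the most abundant member of each role show the same contrast library by library. Npm1 was at 805 CPM in WT, 710 CPM in C, 1036 CPM in K and 803 CPM in CK in CC, and at 2075, 2071, 1916 and 1850 CPM in prememory cells in that order. No prememory value came near a CC value. Fbl was at 164, 159, 210 and 162 CPM in CC and at 356, 338, 341 and 402 CPM in prememory cells. Nop10, the smallest protein of the H/ACA core, was at 297, 337, 360 and 388 CPM in CC and at 687, 836, 686 and 691 CPM in prememory cells. In both genes the lowest prememory library was above the highest CC library. Wdr43, which acts in the first small subunit precursor, was at 107, 94.0, 64.3 and 101 CPM in CC and at 201, 181, 193 and 221 CPM in prememory cells. Nip7, a large subunit factor, was at 104, 113, 122 and 112 CPM in CC and at 174, 198, 139 and 206 CPM in prememory cells, also without overlap. Polr1c was at 35.5, 37.2, 47.5 and 36.6 CPM in CC and at 41.6, 39.5, 60.8 and 37.5 CPM in prememory cells, and here the libraries overlapped. Gnl3 was at 49.2, 47.8, 51.1 and 59.8 CPM in CC, at 21.8, 30.8, 19.0 and 24.6 CPM in CB and at 214, 263, 169 and 233 CPM in prememory cells.

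The markers of the cells named prememory were examined beside these levels. With libraries summed, the GC markers S1pr2 and Mef2b were at 3.43 and 27.5 CPM in prememory cells, against 160 and 621 CPM in CC. Klf2, a factor of resting lymphocytes, was at 462 CPM, above CC (167 CPM) and below other unannotated B cells (1564 CPM). The latter are 8010 barcodes with UMIs of at least 2 of 4 B cell markers and no T cell marker UMI, a class chosen after seeing the data. This class also held plasma cell transcripts, with Jchain at 3999 CPM and Slpi at 1401 CPM against 44.0 and 9.15 CPM in prememory cells, and their part in the ratios to this class was not tested. Cd38, a marker of naive and memory B cells, was at 164 CPM in prememory cells, again between CC (81.7 CPM) and the unannotated B cells (256 CPM). Cells named prememory thus had these GC markers at a level far below CC, and less Klf2 and Cd38 than the unannotated B cells. Of other markers on the prememory list, Ccr6 was also between both, at 14.3 CPM, while Gpr183 was at 76.1 CPM in prememory cells, 68.1 CPM in unannotated B cells and 10.53 CPM in CC. A Myc UMI was found in between 7.83% of them in CK and 15.2% in WT. The summed level of the 35 genes in them was 3.43-fold that of the unannotated B cells, higher for 34 of 35 members in all 4 libraries (21.4% of 10718 genes) and lower for 0 (22.9%). Against barcodes with UMIs of at least 2 of 5 T cell markers and none of B cell markers it was 2.25-fold, higher for 33 members in all 4 libraries (25.7% of 10638 genes) and lower for 0 (27.1%). In the latter barcodes the sum ran from 3708 to 3999 CPM. In bulk sums of this kind, more cells with high levels and more RNA per cell cannot be told apart, but the median prememory cell held between 17 and 24 UMIs of the members and the median CC between 7 and 13, at a median total of 1991 to 3299 UMIs against 2670 to 4741 UMIs.

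How the level ran along the course of the GC was examined with the deposited pseudotime, which starts in CB and ends in prememory cells. Cells were placed by the share of WT cells that precede them and divided into 5 segments. The pseudotime was derived from the same cells, so no test was made. In the first segment the sum was 3884 CPM in WT, 3704 CPM in C, 3748 CPM in K and 4066 CPM in CK. In the fourth it was 3588, 3469, 3390 and 3594 CPM, below the first segment in each library. In the last segment the libraries parted, at 4789 CPM in WT, 4644 CPM in C, 3300 CPM in K and 3372 CPM in CK. Prememory cells made up 47.8%, 39.9%, 18.8% and 12.7% of the last segment in WT, C, K and CK. Without prememory cells the last segment was at 2509, 2304, 2631 and 2728 CPM, lower than the first segment in all 4 libraries, by 0.60 ± 0.07 on the log2 scale (SD, n = 4). That view was added after seeing the data.

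**Figure D3:**
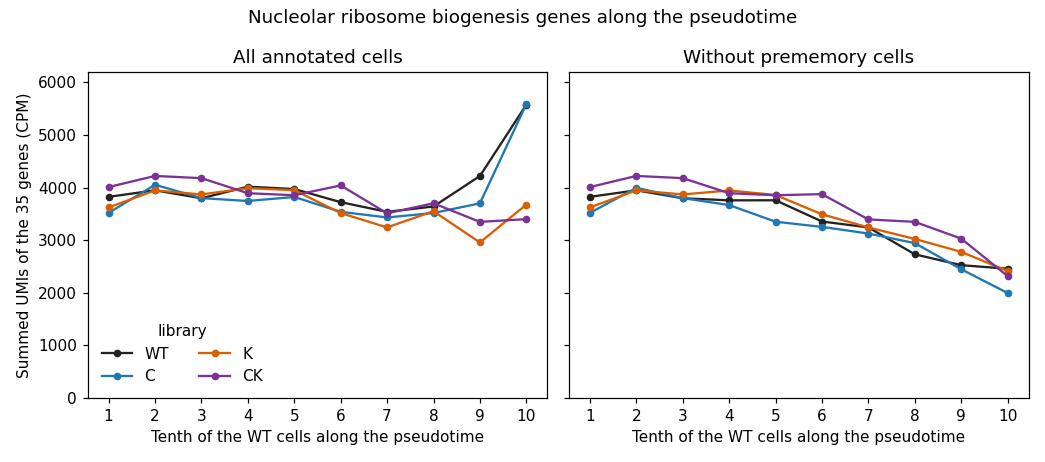
Summed UMIs of the 35 genes in CPM (vertical axis) by 10 segments of equal WT cell share along the pseudotime (horizontal axis), 1 line per library, with all annotated cells (left) and without prememory cells (right). At left WT and C end at 5575 and 5588 CPM and K and CK at 3676 and 3399 CPM. At right all 4 libraries end between 1995 and 2456 CPM.

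Single members did not share the course. Rrs1, Brix1 and Nop58 were lower in the last than in the first segment in all 4 libraries with prememory cells included. Nop58 went from 170 to 135 CPM in WT, from 153 to 126 CPM in C, from 149 to 86.6 CPM in K and from 170 to 78.1 CPM in CK. Gnl3, Ddx21, Mybbp1a, Polr1a, Heatr1, Pes1 and Noc2l were higher in the last segment in all 4. The share of all genes higher or lower in all 4 libraries was not determined here, so naming these members is a description only. Gnl3 went from 35.3 to 110 CPM in WT, from 40.2 to 113 CPM in C, from 33.6 to 55.9 CPM in K and from 45.2 to 59.1 CPM in CK.

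Whether the members were higher in CC with a Myc UMI was tested within each library, since the split by Myc UMIs does not use the members. Of 2444 CC, 146 had at least 1 Myc UMI, namely 22 WT cells (5.76%), 22 C cells (4.27%), 49 K cells (8.02%) and 53 CK cells (5.66%). In CB, at a median depth of 4604 to 5526 UMIs against 2670 to 4741 UMIs in CC, the share was between 1.48% and 2.38%. Thinned to 2000 UMIs a cell, the shares were 2.29% to 5.29% in CC and 0.636% to 1.47% in CB. Free RNA can give a UMI in cells that do not express a gene, so a Myc UMI does not by itself mark a cell as expressing Myc. In T cell marker barcodes the share was 6.17% to 13.0%, at a median depth of 1931.5 to 3242 UMIs. The summed level was higher in CC with Myc UMIs in every library. It was 4733 against 3254 CPM in WT, 3954 against 3095 CPM in C, 6665 against 3449 CPM in K and 5456 against 3550 CPM in CK. The log2 ratio of the sums averaged 0.62 ± 0.25 (SD, n = 4), or 1.53-fold, and was largest in K (0.95) and smallest in C (0.35).

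By edgeR's quasi-likelihood test on UMIs summed per library, with the library as a block, 13 of the 33 members tested were higher in CC with Myc UMIs at an adjusted p under 0.05, where 2.68% of 7607 genes were. Members lower were 0 by this test, by DESeq2 and at an unadjusted p under 0.05, where 1.99% of genes were lower by the adjusted test. All 33 members had a positive fold change, and 17 were higher in all 4 libraries (9.52% of genes). Their median log2 fold change was 0.73, against -0.04 over all genes. Polr1b and Rrp12 had too few UMIs to be tested.

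**Figure D4:**
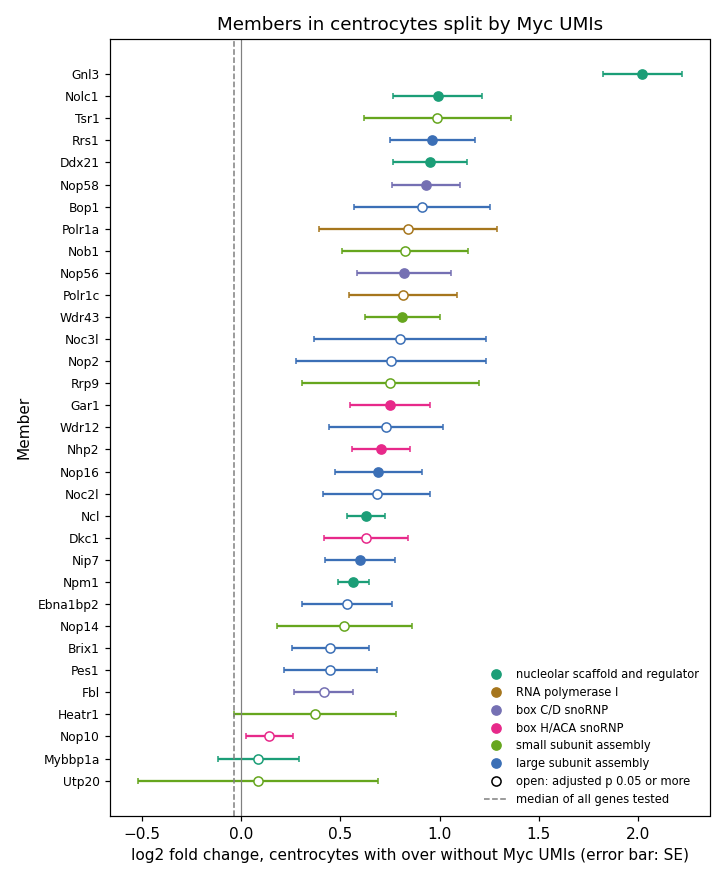
log2 fold change of each tested member (rows) in CC with over without Myc UMIs (horizontal axis), with its standard error, coloured by role. Filled points are the 13 members at an adjusted p under 0.05, open points the other 20, and the dashed line is the median of all 7607 genes at -0.04. Every member lies right of 0, with Gnl3 apart from the rest at 2.02.

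Among the scaffolds and regulators, 5 of 6 rose. Gnl3 was at 187 CPM with and 39.3 CPM without Myc UMIs in WT, 162 and 41.9 CPM in C, 172 and 38.4 CPM in K, and 190 and 49.1 CPM in CK. The 4 values with Myc UMIs lay close together and far above the others, at a log2 fold change of 2.02 ± 0.20 (SE, adjusted p = 5.57e-21). A Gnl3 UMI was seen in 43.8% of CC with and 11.7% of those without Myc UMIs. These shares pool the libraries and are not matched for depth, and CC with Myc UMIs were deeper. Nolc1 was at 73.2 and 58.6 CPM in WT, 97.2 and 53.0 CPM in C, 147 and 47.2 CPM in K, and 97.3 and 54.3 CPM in CK (0.99 ± 0.22, adjusted p = 0.000668). Ddx21 was at 114 and 76.8 CPM in WT, 227 and 98.8 CPM in C, 139 and 55.2 CPM in K, and 185 and 102 CPM in CK (0.95 ± 0.19, adjusted p = 3.05e-05). Both were higher in 4 of 4 libraries, with WT closest to no difference. Npm1 was at 1106 and 783 CPM in WT, 832 and 703 CPM in C, 1755 and 960 CPM in K, and 1201 and 770 CPM in CK (0.57 ± 0.08, adjusted p = 2.46e-10). Ncl rose by 0.63 ± 0.10 (adjusted p = 8.63e-09), with every library in that direction. Mybbp1a, a nucleolar protein that binds Myb, did not pass, at 163 and 105 CPM in WT, 54.0 and 86.0 CPM in C, 92.4 and 83.9 CPM in K, and 107 and 105 CPM in CK (0.09 ± 0.21, adjusted p = 0.91).

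Of the 2 polymerase subunits tested 0 rose by the adjusted test or by DESeq2, and 1 had an unadjusted p under 0.05. It was Polr1c, at 65.1 and 33.4 CPM in WT, 43.2 and 36.8 CPM in C, 88.2 and 43.3 CPM in K, and 63.2 and 34.4 CPM in CK (0.82 ± 0.27, adjusted p = 0.056). Of the box C/D proteins, Nop58 (0.93 ± 0.17, adjusted p = 5.84e-06) and Nop56 (0.82 ± 0.24, adjusted p = 0.018) rose. Fbl did not pass, at 187 and 162 CPM in WT, 173 and 158 CPM in C, 311 and 199 CPM in K, and 233 and 157 CPM in CK (0.42 ± 0.15, adjusted p = 0.083). In each of these genes CC with Myc UMIs were higher in 4 of 4 libraries. Of the H/ACA proteins, Gar1 (0.75 ± 0.20, adjusted p = 0.0089) and Nhp2 (0.70 ± 0.15, adjusted p = 0.00012) rose, the latter in 3 of 4 libraries. Nop10 was at 277 and 299 CPM in WT, 400 and 334 CPM in C, 433 and 352 CPM in K, and 447 and 383 CPM in CK (0.14 ± 0.12, adjusted p = 0.65).

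Of the 7 small subunit factors tested, Wdr43 rose, at 171 and 103 CPM in WT, 162 and 90.4 CPM in C, 147 and 55.6 CPM in K, and 136 and 97.9 CPM in CK (0.81 ± 0.19, adjusted p = 0.0011). Tsr1, which acts late on the subunit, had a fold change of similar size from few UMIs and did not pass, at 48.8 and 22.3 CPM in WT, 10.8 and 17.9 CPM in C, 25.2 and 11.5 CPM in K, and 63.2 and 25.6 CPM in CK (0.99 ± 0.37, adjusted p = 0.12). Heatr1, which promotes ribosomal RNA transcription and processing, was at 32.5 and 24.0 CPM in WT, 10.8 and 21.2 CPM in C, 37.8 and 9.27 CPM in K, and 19.5 and 30.8 CPM in CK (0.37 ± 0.41, adjusted p = 0.77). Utp20 had between 1 and 3 UMIs per library in CC with Myc UMIs and a log2 fold change of 0.08 ± 0.61 (adjusted p = 0.98). For these low genes a difference of the size seen in Wdr43 was not detectable at this depth. Of the 11 large subunit factors Rrs1, Nop16 and Nip7 rose. Rrs1, which brings the 5S particle into the subunit, was at 106 and 52.8 CPM in WT, 75.6 and 60.3 CPM in C, 122 and 53.4 CPM in K, and 151 and 68.7 CPM in CK (0.96 ± 0.21, adjusted p = 0.000509). Nip7 was at 146 and 101 CPM in WT, 119 and 112 CPM in C, 214 and 113 CPM in K, and 170 and 107 CPM in CK (0.60 ± 0.18, adjusted p = 0.020). Nop16 rose by 0.69 ± 0.22 (adjusted p = 0.041), in 3 of 4 libraries.

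Of the 6 members with CACGTG in the promoter window, Wdr43 was higher in CC with Myc UMIs by the adjusted test, and Nop2, Pes1, Tsr1, Utp20 and Mybbp1a were not. Of all 33 members tested 13 were higher, and of all genes 2.68%. The log2 fold changes of Tsr1 (0.99), Wdr43 (0.81) and Nop2 (0.76) were above the members' median of 0.73. Those of Pes1 (0.45), Mybbp1a (0.09) and Utp20 (0.08) were below it. A difference between members with and without the motif was not tested. The window of Gnl3, the member with the largest fold change, did not hold these letters. The other ribosome biogenesis genes of a list of 114 that excludes the 35 had 10 of 107 tested higher and 0 lower by edgeR at an adjusted p under 0.05. Of the 107, 88 had a positive fold change, and the median log2 fold change was 0.38. Of the 10, Cd3eap, a subunit of RNA polymerase I, had the largest log2 fold change, at 1.43 ± 0.44 (adjusted p = 0.031). The difference between the lists was not tested.

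Other properties of these cells moved with the split. CC with Myc UMIs were deeper, with medians of 5934.5, 4007.5, 4820 and 3891 UMIs in WT, C, K and CK against 4700.5, 3472, 3784.5 and 2632 UMIs. Of the light zone markers, 4 of 5 rose (Nfkbia, Bcl2a1b, Cd83 and Cd40), and the list of 5 summed to 2417 to 2651 CPM against 939 to 1131 CPM. Of 4 plasma cell markers tested, Irf4 rose by a log2 fold change of 2.33 ± 0.53 (adjusted p = 0.000687). Jchain fell (-0.42 ± 0.09, adjusted p = 0.000728), and Slpi (0.01) and Xbp1 (-0.11) were not called. Irf4 had 8, 2, 2 and 8 UMIs in CC with Myc UMIs of WT, C, K and CK. In K it was at 8.40 CPM with and 6.18 CPM without Myc UMIs. Of 14 S phase genes tested, Mcm3, Mcm5 and Mcm6 rose, and the list summed to 732 to 1133 CPM against 576 to 733 CPM. Of 9 G2M genes 0 were called. Bcl6 and S1pr2 fell, as did Klf2 of the prememory markers and the B cell genes Cd79a and Cd79b. T cell markers summed to 10.8 to 32.5 CPM against 22.3 to 40.0 CPM, where barcodes with T cell markers had 6843 to 7820 CPM. Cells with 2 or more UMIs over both cycle lists were removed as an alternative, which left 32 CC with Myc UMIs. In WT, C, K and CK, CC without Myc UMIs went from 360 to 75, 493 to 175, 562 to 202 and 883 to 329. Their median depth went from 4700.5 to 3943, 3472 to 2945, 3784.5 to 3495 and 2632 to 2330 UMIs. Deeper cells reach 2 such UMIs more easily, so this removal cannot tell the cell cycle from depth. Of the 22 members then tested 0 were called, and 2 were higher and 1 lower at an unadjusted p under 0.05. The log2 ratio of the sums was 0.92, -0.09, 0.63 and 0.52 in WT, C, K and CK. With CC without Myc UMIs drawn from the same bins of depth 7 members were called, with cells of 2500 or more genes added 29 of 35, without the library of K 4, without that of CK 7, and with cells thinned to 2000 UMIs 2. Gnl3 was called in 12 of 13 alternatives, with log2 fold changes between 1.72 and 2.16. The exception was the removal of cells with 2 or more cycle gene UMIs.

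The same split was made in other subtypes as ratios of sums, added after seeing the data. In prememory cells of WT, C, K and CK the log2 ratio was 0.19, 0.34, 0.28 and -0.15, and in transitioning cells it was between 0.05 in WT and 0.23 in K. In CC it was 0.54, 0.35, 0.95 and 0.62. The difference between the subtypes was not tested.

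Whether the genotypes differed was described as ratios over WT within CB and within CC, with intervals that cover counting error only and no test, since each side is 1 library. The summed level moved little. In CB the log2 ratio of C over WT was -0.13 (95% interval -0.19 to -0.07), that of K -0.11 (-0.17 to -0.06) and that of CK 0.01 (-0.04 to 0.07). In CC the ratio of C was -0.10 (-0.15 to -0.04), that of K 0.16 (0.12 to 0.21) and that of CK 0.14 (0.09 to 0.19). The largest of these ratios was 1.12-fold, and K was below WT in CB and above it in CC. The annotation ends near 2500 genes per cell, and 3099 cells above that limit took a subtype name from their nearest cells. With these added, the log2 ratios in CC were -0.0043 in K and -0.085 in CK. Few of them were named CC. In WT, K and CK, CC without Myc UMIs went from 360 to 394, 562 to 578 and 883 to 887 cells. Those with Myc UMIs went from 22 to 39, 49 to 55 and 53 to 59 cells. In T cell marker barcodes, which Cγ1-cre does not target, C, K and CK had log2 ratios of 0.05, -0.05 and -0.01. In the unannotated B cells the ratios were 0.03, -0.23 and -0.07, and in prememory cells 0.06, -0.20 and 0.03. For K their intervals were -0.27 to -0.19 and -0.28 to -0.13, and the median of all genes was -0.26 and -0.16. Plasma cell markers in the unannotated B cells summed to 10030 CPM in K and 4160 CPM in WT. The causes were not tested. Among CC without Myc UMIs alone, K was at 3449 CPM and WT at 3254 CPM.

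Of 33 members with enough UMIs in CB, C had 0 that were at least 1.5-fold higher than WT (8.79% of genes) and 4 that were as far lower (8.18%). K had 2 higher (7.45%) and 10 lower (23.2%), and CK 1 higher (11.5%) and 2 lower (12%). Of 34 members in CC, C had 0 higher (5.71%) and 2 lower (5.82%), K 1 higher (4.6%) and 5 lower (22.6%), and CK 0 higher (7.17%) and 1 lower (5.66%). The share of members below WT in K was under that of all genes in CC and above it in CB. The median of all genes in K was itself -0.15 in CB and -0.14 in CC on the log2 scale, so the scale of this library differed from WT. Relative to that median the sum of the members in CB turned to 0.04. That sum is carried by abundant members, of which Npm1 was higher and Ncl lower in CB of K. The median of the single members in K was -0.31 in CB, below that of all genes. In CC it was 0.08, above that of all genes.

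The 5 members at least 1.5-fold lower in CC of K, a smaller share than among all genes, were Heatr1, Utp20, Wdr43, Tsr1 and Noc3l. They were also among the 10 lower in CB. Heatr1 was at 26.0 CPM in WT, 22.1 CPM in C, 5.40 CPM in K and 20.2 CPM in CK in CB, and at 24.6, 20.7, 12.0 and 29.9 CPM in CC. Utp20 was at 12.5, 8.18, 2.56 and 9.55 CPM in CB and at 15.3, 7.96, 6.79 and 15.1 CPM in CC. Tsr1 was at 31.2, 26.5, 8.81 and 17.8 CPM in CB and at 24.1, 17.5, 12.8 and 28.4 CPM in CC. In all 3 genes K was the lowest library of both subtypes. Noc3l, a large subunit factor, was at 16.6, 17.3, 8.81 and 17.8 CPM in CB and at 18.6, 18.1, 10.4 and 19.9 CPM in CC. Wdr43 was at 103, 84.2, 66.2 and 85.6 CPM in CB, and in CC at the levels given above. The other members at least 1.5-fold lower in CB of K did not reach that in CC, which is no test of a difference. In CB Ddx21 was at 96.7, 85.1, 48.6 and 91.9 CPM, Mybbp1a at 71.7, 44.3, 39.2 and 51.4 CPM, Nop14 at 38.5, 34.6, 23.0 and 38.0 CPM, Wdr12 at 44.7, 40.4, 24.2 and 40.6 CPM and Nop2 at 9.35, 6.25, 5.68 and 10.6 CPM. Mybbp1a in CC stood at 84.7 CPM in K against 109 CPM in WT, with an interval of the ratio that excluded 0. Nop2 and Noc3l had intervals of the ratio in CB that included 0.

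K was also compared with WT outside the GC. In T cell marker barcodes of K, 7 of 35 members were at least 1.5-fold below WT, a share under that of all genes (23.8% of 9203 genes), namely Ddx21, Mybbp1a, Heatr1, Utp20, Nop14, Tsr1 and Noc3l, and Rrp9 and Bop1 were as far above it (3% of genes). Heatr1 was at 27.3 CPM in WT, 33.3 CPM in C, 10.97 CPM in K and 29.6 CPM in CK in these barcodes, and Utp20 at 17.1, 14.6, 6.72 and 14.8 CPM. Wdr43, Wdr12 and Nop2, below WT by 1.5-fold in CB, were closer to it here, with Wdr43 at 80.9 CPM in WT and 60.1 CPM in K, Wdr12 at 38.6 and 42.5 CPM and Nop2 at 14.6 and 13.8 CPM. The difference between the classes was not tested.

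**Figure D5:**
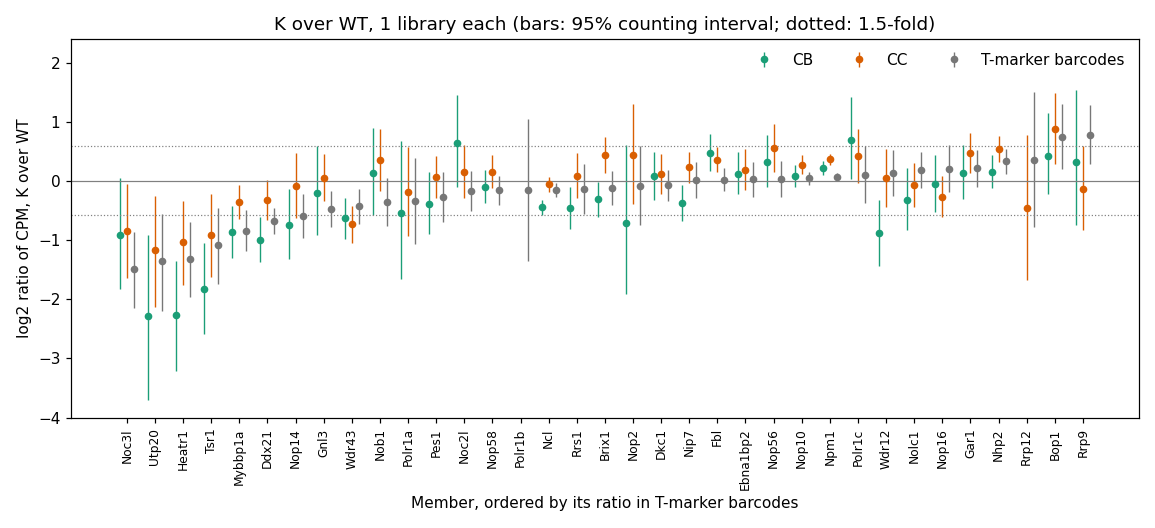
log2 ratio of CPM of K over WT (vertical axis) for each member with enough UMIs (horizontal axis, ordered by the ratio in T cell marker barcodes), in CB, CC and T cell marker barcodes, with 95% intervals that cover counting error only and dotted lines at 1.5-fold. Noc3l, Utp20, Heatr1, Tsr1 and Mybbp1a at the left are below 0 in all 3 classes, and in CB Utp20 and Heatr1 reach -2.29 and -2.27.

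Members above WT by 1.5-fold were few. Polr1c in CB was at 22.9 CPM in WT, 28.4 CPM in C, 36.9 CPM in K and 34.8 CPM in CK, and in CC the libraries were closer. Bop1, a large subunit factor that works with Pes1 and Wdr12, was at 18.6, 16.99, 34.0 and 23.3 CPM in CC, and was also higher in K in T cell marker barcodes (28.7 against 17.1 CPM). Noc2l, the partner of Noc3l, was at 18.7, 22.1, 29.0 and 26.8 CPM in CB, with an interval of the ratio of K that included 0. Members lower in C or CK by 1.5-fold in CB were Mybbp1a, Polr1a, Utp20 and Ebna1bp2 in C and Polr1a and Tsr1 in CK. Ebna1bp2, a large subunit factor, was at 88.3, 53.9, 96.1 and 63.1 CPM, and Polr1a, the largest subunit of the polymerase, at 10.4, 5.29, 7.11 and 5.31 CPM. In CC Rrp12 had between 8 and 13 UMIs per library and Utp20 was lower in C, at the level given above. In CB and CC of CK the members' count on either side was below the share of all genes.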

How the data were processed

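Splenic B220+IgD- cells of 4 mice, 1 per genotype, were profiled by 10x 3′ single-cell RNA sequencing. The authors deposited raw UMI counts per gene and barcode, made with Cell Ranger 3.0 on mm10 (3.0.2 per the file headers). They also deposited a Seurat 4.0 table of the annotated cells with the subtype, the percent of mitochondrial UMIs and the pseudotime rank, a score here because it has no unit. The annotation ends near 2500 genes and 8% mitochondrial UMIs. The members and gene lists were chosen with earlier results of these data known. Every member could be named, with values in each library for the most abundant of each role, the 5 largest and 5 smallest fold changes by Myc UMIs and those past 1.5-fold between genotypes.

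UMIs were summed per library and subtype and divided by the total to give CPM. Intervals (95%) are exact Poisson for sums and exact conditional binomial for ratios, and cover counting error only. The split by Myc UMIs was tested with edgeR 4.0.16 (quasi-likelihood, TMM, filterByExpr, library block, Benjamini-Hochberg adjustment over all genes, threshold 0.05), with Myc left out of the counts and DESeq2 1.42.0 as an alternative. Both sides of the split come from the same 4 libraries, so p-values measure the spread between these libraries. Genotype ratios needed 20 UMIs or more in a gene summed over WT and the mutant, and fold differences of 1.5 or more were counted. The script was tested on simulated data. Some genes among the listed markers were left out of the text and are not reported here. Doublets called by Scrublet stayed in and were removed as an alternative.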

Additional observations from a re-analysis of the deposited data

Results flagged for a closer look

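The summed level of the 35 genes in K over WT was -0.11 on the log2 scale in CB and 0.16 in CC, opposite in sign with counting intervals that exclude 0. The difference between the subtypes was not tested, since each genotype is 1 library. Cells with 2500 or more genes are outside the deposited annotation and the comparisons above. They were labelled by their 25 nearest cells, annotated or not. Those that took a subtype name held a summed level of 4793 CPM in WT, 4959 CPM in C, 4726 CPM in K and 5172 CPM in CK. This was above CB, transitioning cells and CC of every library.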

How the results depend on the processing

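Depth and the few CC with Myc UMIs limit the single members, and 1 library per genotype limits the ratios over WT. Members higher with Myc UMIs (13) were 8 by DESeq2, 5 without the library block and 7 with CC of the same depth bins. They were 2 after thinning to 2000 UMIs and 29 with cells of 2500 or more genes added. With cells of 2 or more cycle gene UMIs removed they were 0, and with a library left out 4 to 16 (4 without K). The members' median log2 fold change (0.73) was 0.48 after thinning and 0.44 with cells of 2 or more cycle gene UMIs removed. Genes called in either direction (355) were 118, 86, 184, 68, 1359 and 7 in the order of the first 6 settings, and 105 to 357 with a library left out. Genes higher (204) were 94, 72, 118, 24, 752 and 6 in that order, 134 without the filter on low counts and 79 to 226 with a library left out. Of 415 log2 fold changes of single members under the alternatives, 14 changed sign. Without the filter Utp20 was at -0.00082. After thinning Mybbp1a was at -0.57, Nop10 at -0.028, Heatr1 at -0.018 and Noc3l at -0.035. With cells of 2 or more cycle gene UMIs removed Npm1 was at -0.11, Nop16 at -0.011, Rrs1 at -0.14, Brix1 at -1.39 and Ebna1bp2 at -0.31. With a library left out, Mybbp1a ran from -0.083 (without WT) to 0.20, Utp20 from -0.19 (without WT) to 0.29, Heatr1 from -0.35 (without K) to 0.88 and Ebna1bp2 from -0.14 (without K) to 0.72. With cells of 2500 or more genes added, the log2 ratio of early CB over CC was 0.45. That of the sum over WT was -0.027 for C in CB, -0.0043 for K in CC and -0.085 for CK in CC. The log2 ratio of the last over the first segment of the pseudotime (0.04) was -0.60 without prememory cells. Relative to the median of all genes, the ratio of the sum for K became 0.040 in CB and 0.31 in CC. The median of the single members in CB of K stayed below that of all genes. Relative to T cell marker barcodes the ratio in CC was -0.15 for C and 0.22 for K. Without Npm1 and Ncl it was -0.016 for C and 0.19 for CK, and after thinning 0.085 for K. Members past 1.5-fold in CB were 0 in C (4), 6 in K (12) and 0 in CK (3) with the added cells, 8, 6 and 5 relative to T cell marker barcodes, and 2 in C with at least 50 UMIs. In CC they were 1 in C (2) with the added cells, 0 in C and CK (1) with at least 50 UMIs, and in CK 3 after thinning and 2 relative to T cell marker barcodes. The causes were not tested. The other 133 values that answer a comparison kept their direction and size under the alternatives. Both sides of the split by Myc UMIs were paired within each library by the block in the test, without which 5 members were called as given above, and the genotypes could not be paired, with 1 library each.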
